A study of Mus musculus with 15 samples.

Results

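The genes described here are 56 cell cycle and DNA replication genes, out of 24346 gene symbols in the deposited expression table. They were chosen by name, as 3 D-type cyclins, 21 genes of the G1/S transition and S phase and 32 mitotic genes, and all 56 were found and had enough signal to be tested. Levels are FPKM values, that is fragments per kilobase of transcript, scaled to the fragments sequenced in each library. RNA-seq libraries were made from total RNA of C57BL/6 mouse cells with brain as their source, 3 for each of 5 groups. Starting astrocytes are called D0, cells whose label is chemical-induced neurons are called D4, D8 and D16 after the day of sampling, and primary neurons are called PN. The design text places the induced cells in vitro, the chemicals are not named in the labels, and age, sex and the way in which the cells were isolated are not given in the sources used here. The comparison asked how far S-phase and mitotic genes differed in level across the time course, and against primary neurons.

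Cells enter the cycle when D-type cyclins and their kinases phosphorylate the retinoblastoma family, which frees E2F factors to switch on genes of DNA replication. Replication origins are licensed when Cdc6 and Cdt1 load the ring-shaped MCM helicase, and S phase then needs the sliding clamp Pcna and a supply of deoxynucleotides. Genes of mitosis peak later, in G2 and M phase, under MYB, FOXM1 and DREAM-type complexes that bind short CHR motifs near their starts. Astrocytes can divide in culture, whereas mature neurons have left the cell cycle.

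The sequences shown here are the stretches just before 7 of these genes, because S-phase and mitotic members held different motifs there. They come from RefSeq, build GRCm38.p6, whose promoter table held 46 of the 56 members; Ccnd1, Ccnd2, Ccne2, Gmnn, Mcm4, Ccna2, Cdc25c, Foxm1, Aurkb and Tpx2 were not in it. Each sequence is the 160 bases before the first annotated base of the gene, written 5′ to 3′ on the gene's own strand. The mitotic examples are Cdc20 (chr4:118437344-118437503, minus strand), Ube2c (chr2:164769769-164769928, plus strand), Top2a (chr11:99024200-99024359, minus strand) and Cdk1 (chr10:69352913-69353072, minus strand). The S-phase examples are the helicase subunits Mcm5 (chr8:75109308-75109467, plus strand), Mcm6 (chr1:128359706-128359865, minus strand) and Mcm2 (chr6:88898781-88898940, minus strand). Capitals mark the CHR-type motif TTTGAA and the E2F-type motifs TTTNGCGC and TTCCCGCC on either strand, so that TTCAAA is a CHR-type match on the other strand.
Cdc20: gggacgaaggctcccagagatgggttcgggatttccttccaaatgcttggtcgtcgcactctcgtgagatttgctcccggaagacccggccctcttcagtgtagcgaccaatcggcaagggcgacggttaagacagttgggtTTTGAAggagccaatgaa
Ube2c: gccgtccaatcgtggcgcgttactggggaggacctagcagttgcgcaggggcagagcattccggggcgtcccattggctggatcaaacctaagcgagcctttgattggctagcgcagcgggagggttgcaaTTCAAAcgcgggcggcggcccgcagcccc
Top2a: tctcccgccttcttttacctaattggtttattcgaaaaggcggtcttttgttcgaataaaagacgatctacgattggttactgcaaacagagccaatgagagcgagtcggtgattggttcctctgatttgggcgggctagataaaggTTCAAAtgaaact
Cdk1: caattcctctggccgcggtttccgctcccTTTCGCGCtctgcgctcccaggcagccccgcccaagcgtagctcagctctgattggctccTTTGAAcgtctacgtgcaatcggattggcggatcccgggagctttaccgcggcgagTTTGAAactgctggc
Mcm5: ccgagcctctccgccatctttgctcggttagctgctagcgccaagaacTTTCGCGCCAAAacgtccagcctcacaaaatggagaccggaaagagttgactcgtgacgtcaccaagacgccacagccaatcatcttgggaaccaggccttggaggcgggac
Mcm6: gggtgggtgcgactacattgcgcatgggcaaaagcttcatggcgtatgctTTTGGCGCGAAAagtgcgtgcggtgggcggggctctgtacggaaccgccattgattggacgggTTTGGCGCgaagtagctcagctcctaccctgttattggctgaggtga
Mcm2: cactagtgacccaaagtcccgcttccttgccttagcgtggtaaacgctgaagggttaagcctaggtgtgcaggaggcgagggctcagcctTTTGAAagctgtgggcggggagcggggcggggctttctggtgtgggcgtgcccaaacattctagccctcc
The CHR-type matches of Cdc20, Ube2c and Top2a begin 18, 29 and 13 bases before the start. Those of Cdk1 begin 71 and 15 bases before it, and its E2F-type match begins 131 bases before it. Mcm5 holds a pair of overlapping E2F-type matches and Mcm6 holds 3 matches, whereas Mcm2 holds a CHR-type match and no E2F-type match.

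Over windows of 250 bases before to 50 bases after the start, the CHR-type motif was present in 18 of 27 mitotic members and 3 of 18 S-phase members (E2f2, E2f8 and Mcm2), against 20.2% of 27025 genes with a window. Either E2F-type motif was present in 7 of 18 S-phase members (E2f2, Cdt1, Mcm3, Mcm5, Mcm6, Mcm7 and Rrm1) and 1 of 27 mitotic members (Cdk1), against 3.99% of all genes. The CCAAT box was present in 20 of 27 mitotic and 11 of 18 S-phase members, against 41.1% of all genes. Both strands were searched, and each motif was counted on its own where matches overlapped. Within each class, members with and without a match overlapped in what they kept at D16. S-phase members with an E2F-type match kept between 1.46 and 84.3% of their D0 mean at D16, and mitotic members with a CHR-type match kept between 0.336 and 64.1%, against 0.196 to 9.65% in those without one.

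Within groups, Pearson's r between libraries was 0.966 to 0.987 across genes on the log2(FPKM + 1) scale, and relative depth, read from the steps of low FPKM values, ran from 0.707 to 2.03 times that of D0 replicate 1, with PN at 1.72 to 2.03. The summed level of 8 astrocyte markers was 666 to 1522 FPKM at D0, 437 to 515 at D4, 86.2 to 103 at D8, 30.1 to 51.8 at D16 and 133 to 254 in PN. The summed level of 8 neuron markers was 276 to 391 FPKM at D0, 487 to 544 at D4, 714 to 794 at D8, 842 to 921 at D16 and 3189 to 4384 in PN. Stmn2 led this list at D0 (249, 346 and 318 FPKM) and was lower in every induced library (mean 213 FPKM at D16). The other neuron markers had higher means at D16 than at D0, among them Map2 (30.9 against 22.3 FPKM) and Snap25 (172 against 0.183 FPKM). The summed level of 7 neural progenitor markers, led by Vim at D0, was 7523 to 8845 FPKM at D0 and 1914 to 2324 at D4. It was 929 to 1114 at D8, 775 to 1670 at D16 and 838 to 2609 in PN, lower in every other library than at D0. Of its members, Eomes was higher in every induced library than at D0 (mean 2.77 FPKM at D16, 0.0893 at D0). Hes5 was higher in every PN library than at D0 (mean 6.92 FPKM in PN, 0.803 at D0). The astrocyte libraries also held fibroblast and mural markers (summed level 850 to 4046 FPKM, led by Acta2). Oligodendrocyte lineage markers (239 to 391 FPKM, led by Olig1) and ependymal markers (115 to 223 FPKM, led by Foxj1) were present too. The sum of each of these lists was lower in every induced library, but some single markers were not. Pdgfra and Mbp were higher in every induced library (means 3.52 and 1.37 FPKM at D16, 0.823 and 0.311 at D0). Ccdc153 was higher at D4 (mean 2.12 FPKM, against 0.340 at D0). Of these lists, Mog, Tmem212 and Lum were listed at 0 in all D0 libraries, and the microglial and endothelial sums stayed at or under 23.1 and 11.6 FPKM in every library. The part of other cell types in the differences between groups, D16 against PN included, was not tested. In these bulk samples, fewer dividing cells and less RNA of a gene per cell cannot be told apart.

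Most of the 56 genes fell in the induced cells, and mitotic genes stood much lower than S-phase genes from D8 on. A gene was called at a Benjamini-Hochberg adjusted p below 0.05, over all 13983 genes tested with limma, and a change of at least 1 on the log2(FPKM + 1) scale, on which changes of low genes come out too small. At D4, 46 members were lower than at D0, 0 were higher and 10 were not called, where 14.2% of all tested genes were lower and 13.6% higher. At D8, 52 were lower, 0 higher and 4 not called (16.9% of all genes lower, 15.5% higher). At D16, 50 were lower, 0 higher and 6 not called (18.7% lower, 16.6% higher). In PN, 55 were lower than at D0, 0 higher and 1 not called (23.9% lower, 17.1% higher). These comparisons share the D0 libraries, and whether the libraries of a group came from separate cultures is not stated in the labels, so p-values reflect no more than the spread among these libraries, which could be technical.

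**Figure D1:**
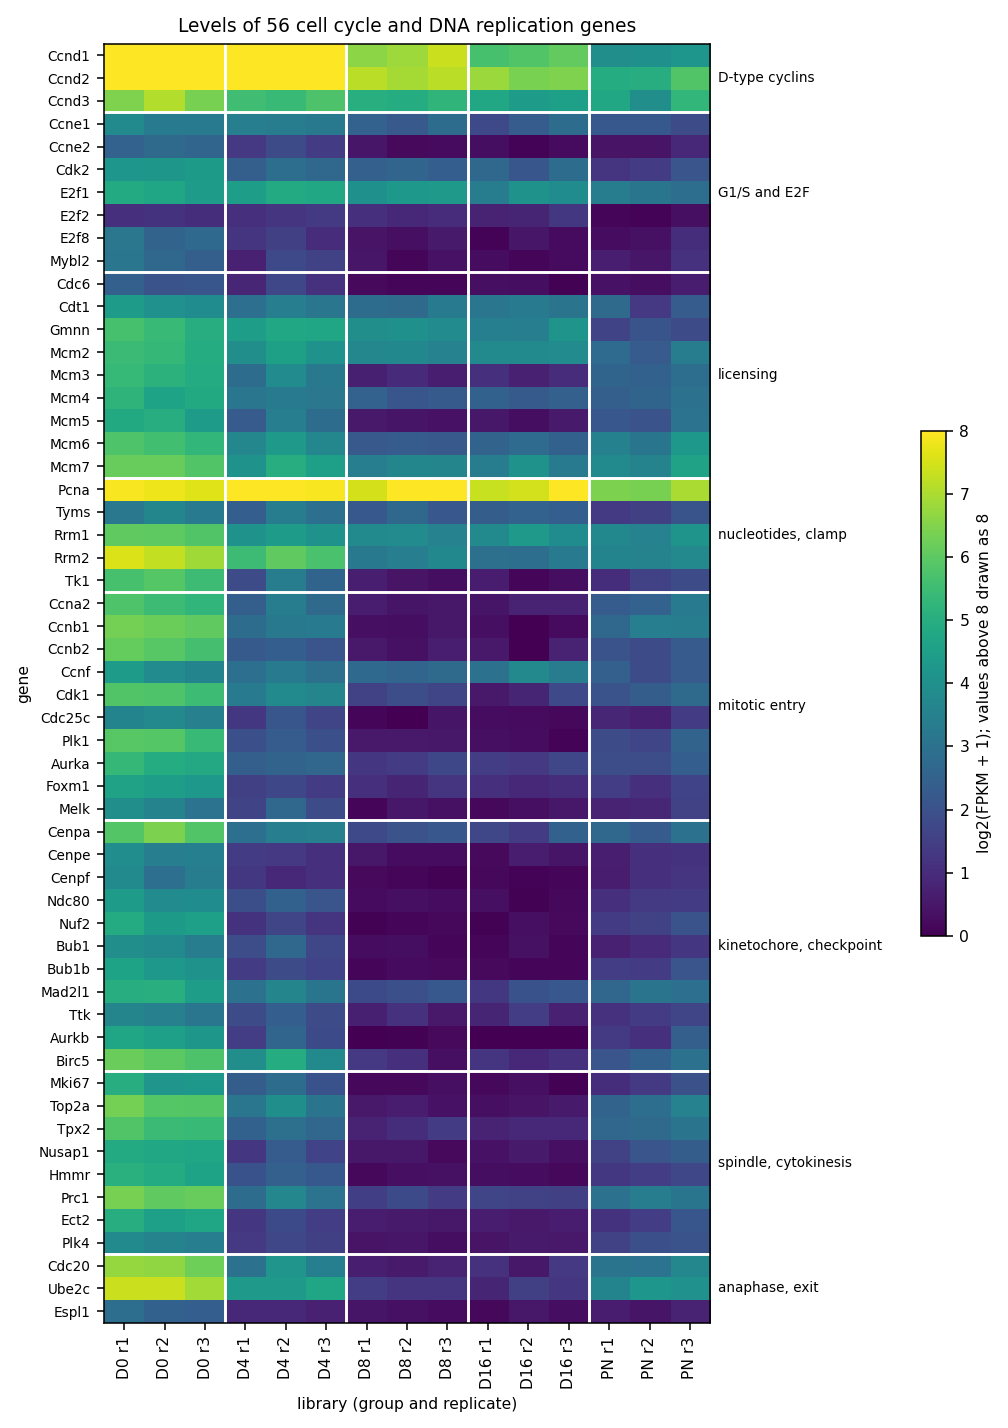
Level of each of the 56 genes (rows, grouped by role) in each of the 15 libraries (columns), as log2(FPKM + 1), with values above 8 drawn as 8. Most mitotic rows in the lower part are near 0 in all D8 and D16 libraries and brighter in PN. Ccnf is an exception, with higher values in all D8 and D16 libraries than in PN. Rows with visible signal at D16 also include Ccnd1, Ccnd2, E2f1, Gmnn, Mcm2, Mcm7, Pcna and Rrm1.

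The loss was uneven between the classes. The median S-phase member stood at 35.5% of its D0 mean at D4, 16.9% at D8, 17.8% at D16 and 17.2% in PN. The median mitotic member stood at 14.1% at D4, 1.39% at D8, 1.45% at D16 and 10.01% in PN. At D16, 19 of 32 mitotic members were under 2% of their D0 mean, against 2 of 21 S-phase members (Mcm5 and Tk1), and in PN neither class had a member under 2%. By these medians PN stood near D8 and D16 in S-phase genes and between D4 and D8 in mitotic genes.

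**Figure D2:**
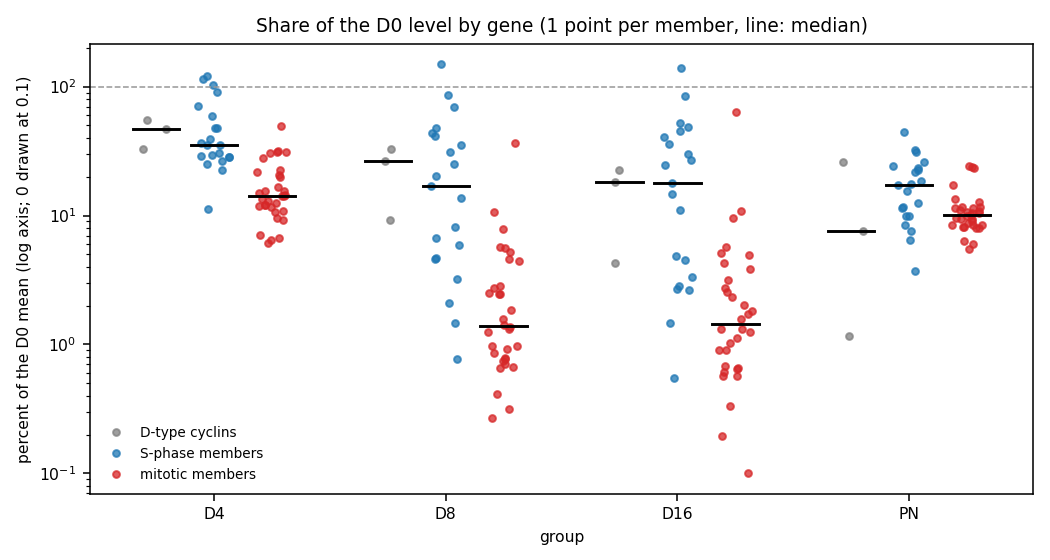
Group mean of each gene as a percent of its D0 mean (log axis, 1 point per gene, black line: median of the class), for D-type cyclins, S-phase members and mitotic members; a value of 0 is drawn at 0.1. The mitotic points lie mostly below 10% at D8 and D16 and around 10% in PN, and Pcna is the S-phase point above 100% at D8 and D16.

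The same pattern was present in every library. The mean log2 level of the S-phase members minus that of the mitotic members was -0.37, -0.27 and -0.28 in the D0 libraries, 0.91, 0.96 and 1.03 at D4, 1.61, 1.60 and 1.65 at D8, 1.58, 1.57 and 1.64 at D16, and 0.45, 0.20 and 0.30 in PN. The D8 and D16 libraries overlapped each other, and lay above all D4, D0 and PN libraries. The mean mitotic level was 0.74 ± 0.07 at D16 against 2.0002 ± 0.29 in PN, whereas the mean S-phase level was 2.33 ± 0.11 at D16 against 2.32 ± 0.27 in PN (SD, n = 3 each). No test was made of these means, since the members were chosen with earlier results of these data known. With a pseudocount of 0.1 the difference between the classes was wider, by 2.71 at D16 relative to D0 in place of 1.90, and by 1.43 at D4 in place of 1.27.

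**Figure D3:**
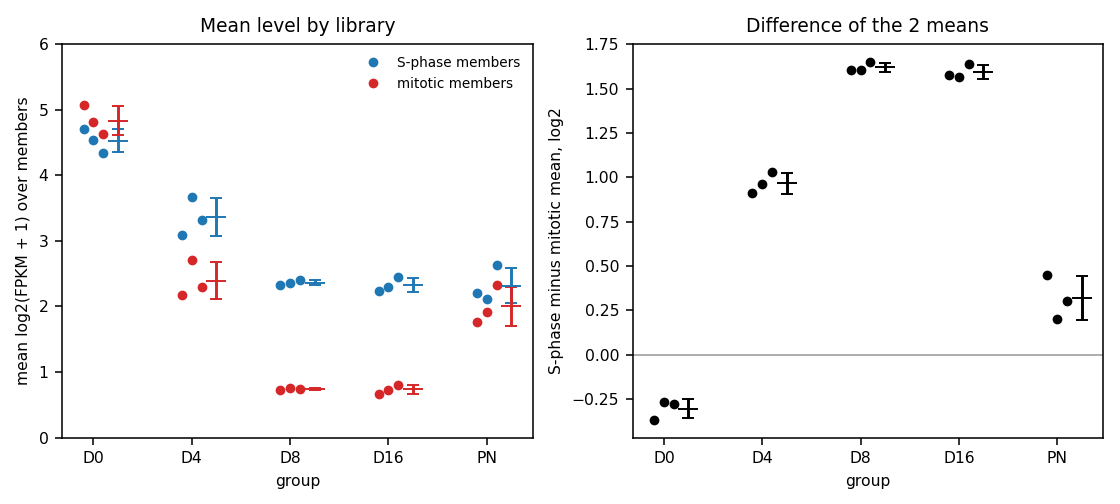
Left, mean log2(FPKM + 1) over the 21 S-phase and the 32 mitotic members in each library (points) with the group mean and SD (bar, n = 3); right, the S-phase mean minus the mitotic mean. The difference is negative in all D0 libraries and lies between 1.57 and 1.65 in all D8 and D16 libraries, against 0.20 to 0.45 in PN.

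The D-type cyclins, the partners of Cdk4 and Cdk6 that couple growth signals to G1, were all lower at D8 and D16 than at D0, and none was called at D16 against D8. Ccnd1 (chr7:144929931-144939831) stood at 1546, 1304 and 1194 FPKM at D0, 388, 447 and 501 at D4, 95.8, 113 and 163 at D8, 50.5, 55.3 and 66.4 at D16, and 14.5, 15.1 and 17.3 in PN. No 2 groups overlapped, and the order of levels was D0, D4, D8, D16 and PN from high to low. Its log2 change was -4.53 ± 0.19 at D16 against D0 (SE; adjusted p = 7.7e-11), and D16 remained above PN by 1.81 ± 0.19 (adjusted p = 8.9e-07). Ccnd2 had 564, 488 and 490 FPKM at D0, 287, 286 and 280 at D4, 143, 119 and 143 at D8, 111, 82.3 and 86.8 at D16, and 30.1, 31.0 and 55.2 in PN. Its groups did not overlap either, and it was called at D16 against D0 (-2.46 ± 0.20) and at D16 against PN (1.29 ± 0.20) but not at D4 against D0 (-0.85 ± 0.20). Ccnd3 had means of 101 ± 29.1 FPKM at D0, 47.1 ± 5.85 at D4, 32.9 ± 3.502 at D8, 22.9 ± 3.62 at D16 and 26.3 ± 12.04 in PN (SD, n = 3), and its D16 and PN libraries overlapped. Its fall at D4 (-1.05 ± 0.27) was not called without D0 replicate 2 (-0.83) or D4 replicate 2 (-0.97), or after quantile normalization (-0.89). RefSeq lists a pseudogene, Ccnd3-ps, so reads of Ccnd3 may be shared with a near-identical copy.

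Among the regulators of the G1/S transition, E2f1 and E2f2 kept more of their D0 level at D16 than the others. E2f1, an activating E2F factor, had 28.9, 25.6 and 19.9 FPKM at D0, 21.1, 28.8 and 26.1 at D4, 15.2, 18.0 and 18.5 at D8, 9.30, 15.98 and 13.9 at D16, and 9.19, 7.66 and 6.39 in PN. D4 overlapped D0, D8 and D16 overlapped each other below D0, and PN was lowest. E2f1 was not called at D16 against D0 (-0.89 ± 0.20), a change just inside the minimum of 1; without D0 replicate 3 or D16 replicate 2 it was -1.03 or -1.04 and was called. E2f2, another activating E2F, stayed near 1 FPKM in the induced cells (0.975 ± 0.427 FPKM at D16 against 1.16 ± 0.103 at D0) and stood at 0.134 ± 0.116 in PN (SD, n = 3); it was the 1 member not called in PN against D0 (-0.93 ± 0.17; called without PN replicate 3, -1.01). Cyclin E1 (Ccne1), an activator of Cdk2, was at 40.9% of its D0 mean at D16 and cyclin E2 (Ccne2) at 2.83%. Ccne1 was called at D16 against D0 (-1.15 ± 0.25) but not without D0 replicate 1 (-0.96) or D16 replicate 1 (-0.88), and at D8 it was not called (-0.93 ± 0.25) except without D0 replicate 2 (-1.03), D0 replicate 3 (-1.02) or D8 replicate 3 (-1.08), with equal totals (-1.01) or with a pseudocount of 0.1 (-1.06). The kinase Cdk2 fell early, to 5.38 ± 0.989 FPKM at D4 against 18.3 ± 0.918 at D0, and its D4, D8 and D16 libraries overlapped. The repressor E2f8 and the late G1 factor Mybl2, a subunit of the MYB-MuvB complex, fell to 0.204 ± 0.173 and 0.154 ± 0.0565 FPKM at D16, against 6.16 ± 1.60 and 5.83 ± 1.72 at D0 (SD, n = 3).

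The licensing genes split within a single complex. The MCM helicase is built of equal numbers of its subunits Mcm2, Mcm3, Mcm4, Mcm5, Mcm6 and Mcm7. Mcm5 (chr8:75109468-75128439) had 27.9, 30.9 and 19.9 FPKM at D0, 3.88, 9.65 and 6.06 at D4, 0.474, 0.373 and 0.312 at D8, 0.441, 0.226 and 0.479 at D16, and 3.498, 3.10 and 7.30 in PN. All D8 and D16 libraries were under 0.5 FPKM and below every PN library. Mcm3 (chr1:20802966-20820312) behaved alike, with 40.3, 34.4 and 29.6 FPKM at D0, 6.14, 13.4 and 8.32 at D4, 0.638, 0.937 and 0.609 at D8, 1.13, 0.664 and 1.02 at D16, and 5.04, 4.63 and 6.49 in PN. Its D8 and D16 libraries overlapped each other and lay below all others. Mcm2 (chr6:88883474-88898780) had 43.0, 39.0 and 29.7 FPKM at D0, 14.3, 22.4 and 16.2 at D4, 12.2, 12.2 and 10.7 at D8, 13.0, 13.3 and 13.6 at D16, and 5.91, 3.88 and 9.38 in PN. Here the D8 and D16 libraries lay above all PN libraries.

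Between D4 and D8 the subunits parted. Mcm3 and Mcm5 fell by 2.52 ± 0.23 and 2.37 ± 0.29 at D8 against D4 (log2, SE; adjusted p = 3.0e-05 and 0.00029) and Mcm6 by 1.64 ± 0.25, whereas Mcm2 (-0.53 ± 0.23), Mcm4 (-0.90 ± 0.18) and Mcm7 (-0.97 ± 0.28) were not called. Mcm4 lay just short of the minimum change, and Mcm7 missed the p threshold as well (adjusted p = 0.0745). Mcm4 was called without D8 replicate 1 (-1.001) and with a pseudocount of 0.1 (-1.04), and Mcm7 without D4 replicate 1 (-1.18). The ratio of Mcm2 to Mcm5 was 1.26 to 1.54 in the D0 libraries, 2.32 to 3.69 at D4, 25.6 to 34.3 at D8, 28.3 to 58.9 at D16 and 1.25 to 1.69 in PN. The ratio of the highest to the lowest subunit was 2.51 to 2.88 at D0, 3.48 to 4.24 at D4, 25.6 to 36.4 at D8, 28.3 to 72.6 at D16 and 3.55 to 3.67 in PN. All 6 subunits fell at D16 against D0, with log2 changes of -1.40 ± 0.23 for Mcm2, -2.44 ± 0.28 for Mcm7, -2.50 ± 0.18 for Mcm4, -2.95 ± 0.25 for Mcm6, -4.20 ± 0.23 for Mcm3 and -4.28 ± 0.29 for Mcm5. Mcm2 was also called at D4 (-1.04 ± 0.23), but not without D0 replicate 1 (-0.93), D4 replicate 1 (-0.91) or D4 replicate 3 (-0.996), or after quantile normalization (-0.88).

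**Figure D4:**
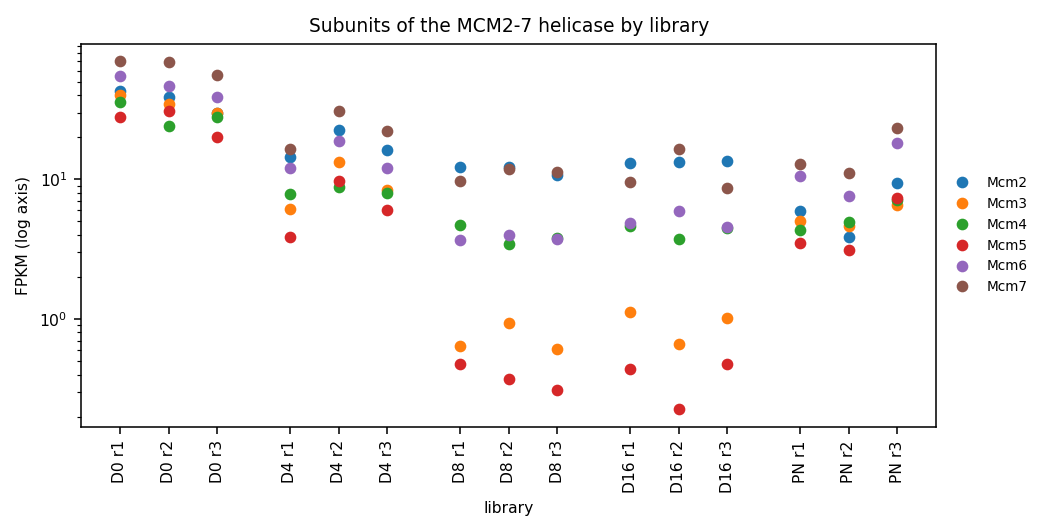
FPKM (log axis) of the 6 subunits of the MCM helicase in each of the 15 libraries, 1 colour per subunit. The subunits lie close together at D0, D4 and in PN, while Mcm3 and Mcm5 drop to about 1 FPKM or below in all D8 and D16 libraries and Mcm2 and Mcm7 stay near 10 FPKM.

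The other licensing genes differed too. Cdc6, the loader of the helicase, was at 0.165 ± 0.120 FPKM at D16 against 3.67 ± 0.717 at D0 (-1.997 ± 0.20). Cdc6 and the mitotic member Espl1 reached the filter of 1 FPKM in 3 libraries only with the D0 libraries counted, so they had to be higher at D0 and their calls against D0 are no independent support. The partner of Cdc6 in loading, Cdt1, was at 8.12 ± 0.891 FPKM at D16 against 16.7 ± 3.42 at D0 and was not called (-0.94 ± 0.29, adjusted p = 0.011), though it was without D0 replicate 3 (-1.05) or D16 replicate 2 (-1.02) and with a pseudocount of 0.1 (-1.01). Geminin (Gmnn), the inhibitor of Cdt1, had 50.4, 40.7 and 30.8 FPKM at D0, 20.7, 26.2 and 25.2 at D4, 14.3, 15.3 and 13.6 at D8, 10.1, 9.71 and 16.6 at D16, and 2.09, 3.18 and 2.55 in PN. Every induced library exceeded every PN library, and D16 stood above PN by 1.83 ± 0.21 (log2, SE; adjusted p = 2.5e-06).

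Nucleotide supply and the clamp covered the whole range from loss to retention. Thymidine kinase Tk1, which salvages thymidine in S phase, had 49.5, 57.7 and 44.0 FPKM at D0, 2.54, 9.30 and 5.03 at D4, 0.601, 0.335 and 0.228 at D8, 0.545, 0.0734 and 0.217 at D16, and 1.04, 1.95 and 2.63 in PN. It kept 0.553% of its D0 mean at D16, the least of the S-phase members. The catalytic subunit of ribonucleotide reductase, Rrm1, and its S-phase partner Rrm2 differed: Rrm1 stood at 24.8% of its D0 mean at D16 and Rrm2 at 4.84%, with falls of 1.96 ± 0.18 and 4.18 ± 0.20 (log2, SE). Thymidylate synthase Tyms was called at D8 against D0 (-1.03 ± 0.25) and not at D16 (-0.97 ± 0.25); its means were 4.21 ± 1.16 FPKM at D8 and 4.34 ± 0.295 at D16. The D8 call was lost without D0 replicate 2 (-0.88), D8 replicate 1 (-0.94) or D8 replicate 3 (-0.93), and D16 was called without D0 replicate 1 (-1.07), D0 replicate 3 (-1.02) or D16 replicate 2 (-1.02).

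Pcna (chr2:132249286-132253180), the clamp that holds DNA polymerase on the template and also serves in DNA repair, was the S-phase member furthest from the rest. It had 242, 221 and 194 FPKM at D0, 279, 269 and 242 at D4, 177, 304 and 497 at D8, 158, 173 and 588 at D16, and 84.4, 82.0 and 126 in PN. D8 replicate 3 and D16 replicate 3 stood far above the other libraries of their groups, D8 and D16 overlapped D0, and all PN libraries were lowest. Pcna was not called at D16 against D0 (0.21 ± 0.42, adjusted p = 0.68). In PN it was lower than at D0 (-1.18 ± 0.42, adjusted p = 0.022), but was not called without D0 replicate 1 (-1.11), PN replicate 1 (-1.09) or PN replicate 2 (-1.07). RefSeq lists the pseudogenes Pcna-ps1 and Pcna-ps2, and also Tyms-ps, so the levels of Pcna and Tyms are uncertain where reads could be split between copies.

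Of the 10 cyclins, kinases and regulators of mitotic entry, 9 were lower at D16 than at D0 (all but Ccnf), and the median member stood at 1.95% of its D0 mean. Cyclin B1 (Ccnb1, chr13:100778739-100786486), the partner of Cdk1 at mitosis, had 78.6, 72.5 and 65.2 FPKM at D0, 6.11, 8.41 and 8.54 at D4, 0.244, 0.225 and 0.419 at D8, 0.253, 0 and 0.170 at D16, and 5.47, 9.70 and 9.53 in PN. D4 and PN overlapped, and every D8 and D16 library lay more than an order of magnitude lower, with D16 replicate 2 listed at 0. Its log2 change was -6.00 ± 0.20 at D16 against D0 (adjusted p = 1.4e-11) and -3.02 ± 0.20 in PN against D0 (adjusted p = 4.0e-09). Cdk1, the mitotic kinase itself, had 56.3, 54.1 and 44.0 FPKM at D0, 9.06, 12.9 and 11.5 at D4, 1.97, 2.68 and 2.18 at D8, 0.468, 0.762 and 2.37 at D16, and 3.11, 4.11 and 5.87 in PN. D16 replicate 3 lay at the D8 level and the other D16 libraries below it. Polo-like kinase Plk1 stood at 0.177 ± 0.107 FPKM at D16 against 52.8 ± 10.1 at D0, cyclin A2 (Ccna2) at 0.596 ± 0.193 against 45.1 ± 8.42, and the spindle kinase Aurka at 1.84 ± 0.398 against 32.2 ± 6.10 (SD, n = 3). Foxm1, the transcription factor that drives G2/M genes, had fallen by D4 (1.98 ± 0.339 FPKM at D4 against 20.8 ± 2.57 at D0) and was not called at D8 against D4 (-0.51 ± 0.17). Ccnb2, the phosphatase Cdc25c and the kinase Melk were also lower at D16, at 0.683, 1.57 and 2.57% of their D0 means, and reads of Ccnb1 and Ccnb2 may be shared with the pseudogenes Ccnb1-ps and Ccnb2-ps.

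Cyclin F (Ccnf, chr17:24223230-24251409), which acts as the substrate receptor of an SCF ubiquitin ligase and not as a kinase partner, kept the largest share of its D0 level among the mitotic members at D16, 64.1%. It had 20.6, 13.5 and 11.3 FPKM at D0, 6.54, 9.14 and 6.70 at D4, 5.64, 5.16 and 5.85 at D8, 7.04, 12.6 and 9.43 at D16, and 4.42, 2.63 and 3.91 in PN. D16 overlapped D0 and lay above all D8 and PN libraries. It was lower at D8 against D0 (-1.26 ± 0.24) and not called at D16 against D0 (-0.58 ± 0.24) or at D16 against D8 (0.68 ± 0.24, adjusted p = 0.27).

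The 11 genes of the centromere, the kinetochore and the spindle checkpoint were all lower at D4, D8, D16 and in PN than at D0. Aurkb, the kinase of the chromosomal passenger complex, had 25.7, 21.7 and 17.9 FPKM at D0, 1.72, 5.11 and 2.46 at D4, 0, 0.0303 and 0.145 at D8, and 1.55, 1.17 and 4.34 in PN, and was listed at 0 in all 3 D16 libraries. No fold is given for D16. Its passenger partner Birc5 (survivin) was slower, with 71.0, 63.0 and 53.7 FPKM at D0, 14.4, 30.1 and 12.8 at D4, 1.51, 1.17 and 0.251 at D8, 1.33, 0.897 and 1.20 at D16, and 3.30, 4.65 and 6.99 in PN. The fall of Birc5 at D8 against D4, by 3.31 ± 0.31 (log2, SE; adjusted p = 4.1e-05), was the largest among the 56 genes. The kinetochore subunits Ndc80 and Nuf2, which attach chromosomes to microtubules, kept 22.6 and 6.65% of their D0 means at D4 and 0.906 and 0.648% at D16. Checkpoint genes Mad2l1 and Ttk kept the most, at 9.65 and 10.9% at D16, while the checkpoint kinases Bub1 and Bub1b were at 1.25 and 0.564%. The centromere histone Cenpa was at 2.83 ± 1.54 FPKM at D16 against 65.9 ± 16.2 at D0, and the kinetochore motor Cenpe and the kinetochore protein Cenpf were under 0.4 FPKM on average at D8 and D16.

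Genes of the spindle, of chromosome structure and of cytokinesis, 8 in all, were likewise lower in all of these comparisons. Mki67, the source of the proliferation antigen Ki-67, had 30.6, 17.0 and 18.2 FPKM at D0, 4.08, 6.05 and 3.09 at D4, 0.137, 0.120 and 0.251 at D8, 0.115, 0.2503 and 0.0356 at D16, and 1.07, 1.57 and 2.92 in PN. D8 and D16 overlapped and lay below every PN library. Topoisomerase Top2a, which untangles chromosomes and whose promoter is printed above, had 79.4, 58.0 and 56.7 FPKM at D0, 7.87, 14.9 and 7.37 at D4, 0.457, 0.516 and 0.322 at D8, 0.264, 0.352 and 0.493 at D16, and 4.87, 6.42 and 10.7 in PN. Its PN libraries overlapped D4 and lay above all D8 and D16 libraries. The spindle assembly factors Tpx2, Nusap1 and Hmmr, the midzone protein Prc1, the cytokinesis exchange factor Ect2 and the centriole kinase Plk4 kept between 0.656 and 3.88% of their D0 means at D16, and between 6.38 and 24.0% in PN.

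All 3 genes of anaphase and mitotic exit were lower at D4, D8, D16 and in PN than at D0. Ube2c, the ubiquitin-conjugating enzyme of the anaphase-promoting complex, had 163, 164 and 117 FPKM at D0, 18.5, 18.8 and 25.3 at D4, 1.73, 1.31 and 1.28 at D8, 0.767, 1.89 and 1.39 at D16, and 11.2, 17.5 and 15.7 in PN. Cdc20, an activator of that complex, had 105, 102 and 73.9 FPKM at D0, 7.11, 16.9 and 9.91 at D4, 0.603, 0.506 and 0.726 at D8, 1.19, 0.416 and 1.53 at D16, and 7.37, 7.35 and 12.04 in PN. For both genes every D8 and D16 library lay below every D4 and PN library. Separase (Espl1), which cuts cohesin, was low throughout, at 0.261 ± 0.151 FPKM at D16 against 5.11 ± 1.20 at D0 (SD, n = 3), and was not called at D8 against D4 (-0.48 ± 0.17) or at D16 against PN (-0.28 ± 0.17).

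At D4, 31 of 32 mitotic members (all but Ccnf), 13 of 21 S-phase members and 2 of 3 D-type cyclins were lower than at D0. Cdc6, Gmnn and Cdt1 were among the S-phase members not called at D4, with changes of -0.97, -0.71 and -0.97, and E2f1, E2f2, Ccne1, Tyms and Pcna lay between -0.49 and 0.27. Without D4 replicate 2, Cdc6 (-1.20), Cdt1 (-1.11) and Ccnf (-1.04) were called. Cdc6 and Cdt1 were also called without D0 replicate 2 (-1.06 and -1.01) or D0 replicate 3 (-1.004 and -1.09), and Ccnf without D0 replicate 3 (-1.08). D4 replicate 2 held the highest value of its group in 43 of 56 members, at a relative depth of 1.62 against 0.717 and 0.707 in the other D4 libraries; the part of depth in this was not tested.

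A further step followed between D4 and D8. There 36 members were lower at D8, 0 higher and 20 not called, where 1.51% of all tested genes were lower and 0.501% higher. The lower ones were 26 mitotic members, 8 S-phase members (Ccne2, Mybl2, Cdc6, Mcm3, Mcm5, Mcm6, Rrm2 and Tk1) and the cyclins Ccnd1 and Ccnd2. The median change was -1.58 over mitotic and -0.83 over S-phase members, against 0.01 over all genes. The mitotic members not called were Ccnf, Foxm1, Cenpe, Cenpf, Ect2 and Espl1, with changes of -0.36 to -0.98. Deviations of the D4 and D8 libraries from their group means correlated by replicate number, though pairing is not stated in the labels. With the replicate number as a block 35 members were called. Single libraries decided 7 of the calls. Mybl2 (-1.02 ± 0.26, adjusted p = 0.044) was lost without D4 replicate 2 (-0.81), D4 replicate 3 (-0.92) or any D8 replicate (-0.92 to -1.09), and with the block (adjusted p = 0.061). Without D4 replicate 2, Cdc6 (-0.85), Cenpa (-1.21), Mad2l1 (-1.07) and Ttk (-1.03) were not called. Cenpa was also lost without D4 replicate 3 (-1.18), D8 replicate 1 (-1.17) or D8 replicate 2 (-1.31), Ttk without D8 replicate 3 (-1.09), Aurka without D8 replicate 1 (-0.97) and Ccnd2 without D8 replicate 2 (-0.98). In the other direction, Cenpe was called without D4 replicate 3 (-1.01), Cenpf without D4 replicate 2 (-1.07) or D8 replicate 1 (-1.03) and Ect2 without D4 replicate 1 (-1.05). Quantile normalization ended the calls of Plk4 (-0.99), Cdc6 (-0.94) and Mybl2 (-0.92).

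Between D8 and D16 no member was called in limma's test, where 0.00715% of all genes were lower and 0.0215% higher. At an unadjusted p below 0.05 there were 4 such members, Ccnd1, Ccnd2, Cdk1 and Ccnf. The largest change was that of Ccnd1 (-1.07 ± 0.19, adjusted p = 0.067), whose D16 libraries all lay below its D8 libraries. It was called without D8 replicate 1 (-1.24, adjusted p = 0.033) and in no other setting, where the adjusted p ran from 0.055 to 0.35. The median change was -0.03 over mitotic and -0.01 over S-phase members.

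Set against primary neurons, the D16 cells had lower levels of most mitotic genes, while licensing genes were called in both directions. Of the 56 members, 24 were lower at D16, 7 higher and 25 not called, where 15% of all tested genes were lower and 19.6% higher. The lower ones comprised 20 of 32 mitotic members and 4 S-phase members (Mcm3, Mcm5, Mcm6 and Tk1). The higher ones were Ccnd1, Ccnd2, Gmnn, Cdt1, Mcm2, Pcna and Ccnf, a smaller share than among all genes. The deepest differences were in Ccnb1 (-2.99 ± 0.20, adjusted p = 1.0e-08), Ube2c (-2.76 ± 0.22), Top2a (-2.55 ± 0.26) and Cdc20 (-2.29 ± 0.28), each with every D16 library below every PN library. Among the S-phase members Mcm5 (-1.96 ± 0.29) and Mcm3 (-1.72 ± 0.23) were deepest. The 11 mitotic members not called had changes of -0.28 to -0.98, all of them toward lower levels at D16. Summed astrocyte markers were higher in PN (133 to 254 FPKM) than at D16 (30.1 to 51.8). Summed microglial markers were higher in PN too (6.05 to 11.5 FPKM, against 0.0578 to 0.935). The summed progenitor markers overlapped, but single ones did not. Fabp7 (mean 1250 FPKM in PN, 29.5 at D16) and Hes5 (6.92 and 0.0260) were higher in every PN library. Eomes was higher in every D16 library (mean 2.77 FPKM, against 0.627 in PN), and the other progenitor markers overlapped. The part of such other cells in the PN levels was not tested.

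**Figure D5:**
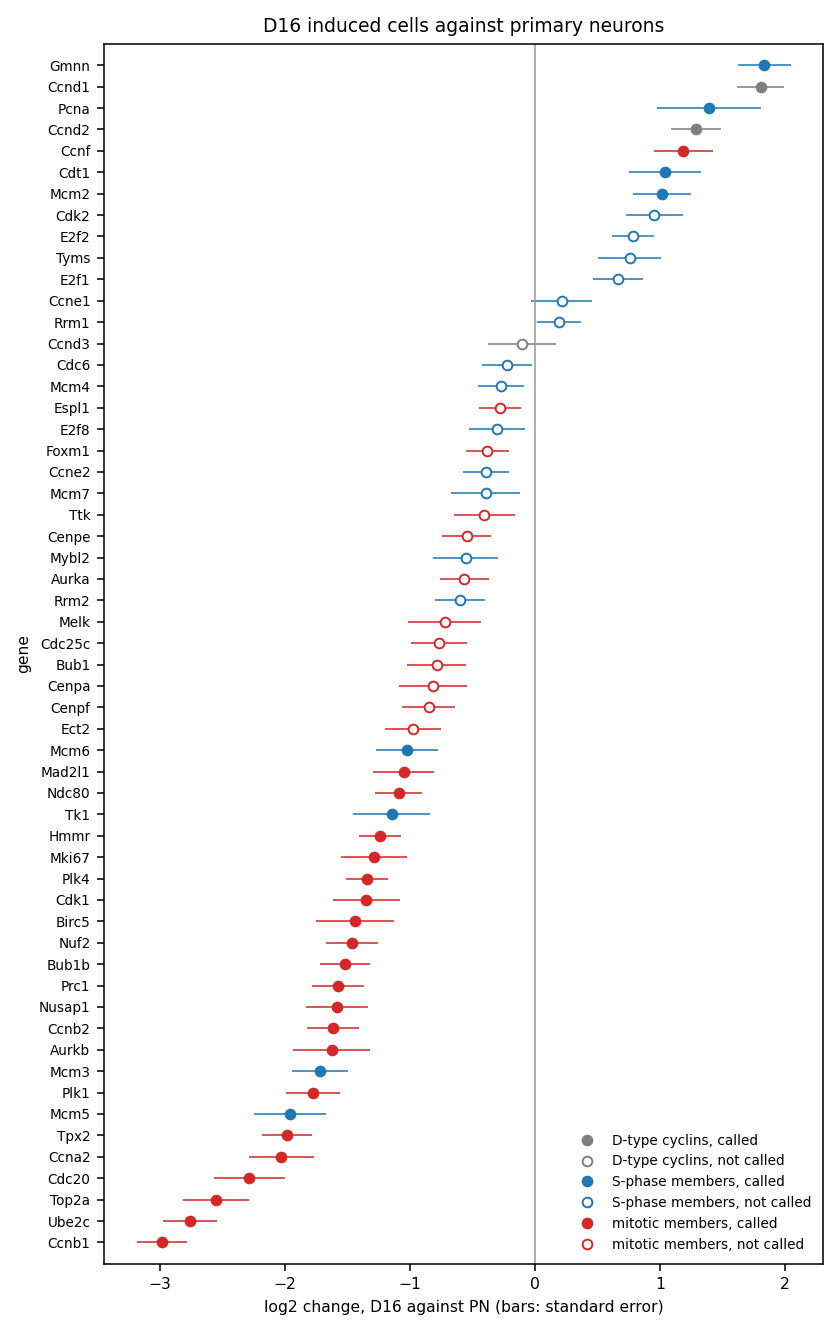
Log2 change of each of the 56 genes at D16 against PN (points, with standard errors; filled where called), sorted by size. Mitotic members (red) fill the lower end to -2.99 for Ccnb1, and the called genes on the other side run up to 1.83 for Gmnn; Aurkb is listed at 0 in all D16 libraries, so its plotted size depends on the pseudocount.

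Several of these calls rested on single libraries or on the scaling. PN replicate 3 held the highest PN value in 47 of 56 members. Its summed progenitor markers (2609 FPKM, against 838 and 1565 in the other PN libraries) and fibroblast and mural markers (38.0 FPKM, against 5.12 and 3.35) were the highest of PN, and its neuron markers the lowest (3189 FPKM, against 3831 and 4384); their part in the result was not tested. Without it 22 members were lower and 8 higher, with Mcm6 (-0.71 in place of -1.03) and Tk1 (-0.96 in place of -1.15) no longer called and Cdk2 called higher (1.22; also without D16 replicate 2, 1.16). Mcm6 was also lost without D16 replicate 1 (-0.99) or D16 replicate 3 (-0.96), and Mad2l1 without D16 replicate 1 (-0.79) or PN replicate 2 (-0.96). Pcna (1.39 ± 0.42) was lost without D16 replicate 3 (0.79), Ccnf (1.19 ± 0.24) without D16 replicate 2 (0.997), Cdt1 (1.04 ± 0.29) without D16 replicate 2 (0.97) or PN replicate 2 (0.64), and Mcm2 (1.02 ± 0.23) without PN replicate 2 (0.75). Lower calls were gained for Cenpa without D16 replicate 3 (-1.12), for Cenpf without PN replicate 1 (-1.03) and for Ect2 without PN replicate 1 (-1.18) or PN replicate 2 (-1.05). Rescaling to equal totals gave 25 lower and 5 higher, without Cdt1 (0.95) and Mcm2 (0.92), and quantile normalization gave 27 lower and 4 higher, without Ccnf (0.99) as well.

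Separate lists held the other genes of these pathways, whose counts at D16 against D0 stand beside 18.7% of all tested genes lower and 16.6% higher. Of 40 further mitotic and cytokinetic genes, 37 were lower at D16 than at D0, 1 higher and 2 not called (median change -2.97), with falls in the kinase Pbk (-6.03 ± 0.19), the cytokinetic scaffold Anln (-5.19 ± 0.22), Cdca8 (-4.94 ± 0.23) and Cdca3 (-4.87 ± 0.20). The higher one was Zwint, a kinetochore protein that is also found at synapses, at 575 ± 56.04 FPKM at D16 against 190 ± 13.8 at D0 (1.59 ± 0.21). Of 42 further replication fork and origin firing genes, 26 were lower, 0 higher and 16 not called (median -1.20). The fork subunits Gins2 (-3.88 ± 0.28) and Cdc45 (-2.95 ± 0.23), the ligase adaptor Dtl (-2.98 ± 0.24) and the methylation maintenance factor Uhrf1 (-2.69 ± 0.26) fell most. At D16 against PN, 10 genes of the mitotic list were lower and 2 higher (Psrc1 and Ncaph), and 3 genes of the replication list were lower (Orc6, Pold3 and Rpa3), beside 15% of all genes lower and 19.6% higher.

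Of 16 G1 kinases, pocket proteins and related factors, 6 were lower at D16 than at D0 and 10 not called, among them the E2F partner Tfdp1 (-1.85 ± 0.16), the pocket protein Rbl1 (-1.73 ± 0.17), the MuvB subunit Lin9 (-1.71 ± 0.17) and the repressor E2f7 (-1.67 ± 0.17). Of 13 genes of the anaphase-promoting complex core and its activator Fzr1, 3 were lower (Cdc23, Anapc2 and Fzr1, -1.05 to -1.38) and 10 not called, a share near that of all tested genes. Of 7 inhibitors of cyclin-dependent kinases, 3 were lower at D16 than at D0 (Cdkn2c, Cdkn2d and Cdkn1b), 1 higher and 3 not called. The higher one was Cdkn2a, whose locus encodes p16 and Arf: it averaged 42.9 ± 7.55 FPKM at D0, 160 ± 9.45 at D4, 325 ± 47.6 at D8, 348 ± 149 at D16 and 0.870 ± 0.665 in PN (SD, n = 3). Its log2 change was 2.89 ± 0.30 at D16 against D0 (adjusted p = 1.0e-06) and 7.49 ± 0.30 at D16 against PN (adjusted p = 9.5e-11). At D16 against PN, Cdkn2b (63.8 FPKM at D16 and 1.72 in PN) and Cdkn1a (369 FPKM at D16 and 61.3 in PN) were higher as well, whereas Cdkn1b and Cdkn2d were lower.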

How the data were processed

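Total RNA of 15 samples was sequenced with paired 150-base reads, per the labels. FPKM values for 24346 gene symbols were deposited by the authors in a single table; the genome was mm10 (GRCm38), per the submitters' processing notes, and the aligner, the quantifier and the annotation are not given in the sources used here. Read counts were not used here, so the absolute depth is unknown; log2 changes had a median standard error of 0.201. Since strand-specific counting is not stated, reads of overlapping or near-identical genes cannot be told apart.

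Values were transformed as log2(FPKM + 1), and 13983 genes that reached 1 FPKM in at least 3 of 15 libraries were tested. A group-means model of all libraries was fitted with limma 3.58.1 (R 4.3.3), with a variance trend and 10 residual degrees of freedom. P-values were adjusted by Benjamini-Hochberg over all tested genes per comparison, two-sided. Calls needed adjusted p below 0.05 and log2 changes of 1 or more in size. The test was tried on simulated data, with planted falls shallower than the deepest ones here and in genes well above the filter at D0. It therefore does not cover the deepest falls. All 56 members passed the filter; 54 would pass it without the D0 libraries (all but Cdc6 and Espl1). The members, their classes and the other lists (5 pathway lists and 8 marker lists) were chosen with earlier results of these data known. Named were all members and, of each other list, up to 4 called genes with the largest change at D16 against D0, any gene called against the direction of its list, and counts of 5 or fewer. Knl1 was matched by its older symbol Casc5. Gene positions and sequences came from RefSeq (GRCm38.p6), the files' build. Tables and figures used Python 3.11.15, pandas 2.3.3, numpy 2.4.6 and matplotlib 3.10.9.

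Between D4 and D8 the deviations from the group means correlated at 0.329 to 0.454 in all 3 same-number pairs, against -0.497 to 0.114 in the other pairs. In no other comparison did all 3 pairs exceed 0.1. Pairing is not stated in the labels. Relative depth was also alike in replicate 2 (1.62 at D4, 1.69 at D8) and replicate 3 (0.707 in both), and its part in the correlation was not tested. Alternatives changed the pseudocount (0.1), the filter (none, or 5 FPKM), the scaling (equal totals or quantile normalization), the block (replicate number), the samples fitted (only the 2 groups compared) or the minimum change (none), or left out each library in turn.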

Additional observations from a re-analysis of the deposited data

How the results depend on the processing

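Direction held for every called member under every alternative run, and no total of called members moved by more than 1.5 times other than the 0 of D16 against D8. Split by direction, the 7 members higher at D16 against PN became 4 after quantile normalization and 11 with no minimum change. Leaving out each library in turn gave 45 to 49 called members at D4 against D0, 51 to 53 at D8, 49 to 53 at D16 and 54 to 56 in PN against D0, 32 to 38 at D8 against D4, 0 to 1 at D16 against D8 and 29 to 33 at D16 against PN. The change of the S-phase minus mitotic difference relative to D0 was 1.24 to 1.30 at D4 and 1.87 to 1.92 at D16 when libraries were left out, and 1.43 and 2.71 with a pseudocount of 0.1. The replicate block left 35 members called at D8 against D4 (36 without it) and changed no other count of called members. At D16 against PN, 42 members were called with a pseudocount of 0.1 (33 lower, 9 higher) and 44 with no minimum change. Rescaling to equal totals or quantile normalization moved the median change of all genes in PN against D0, which was -0.12, to -0.01 and 0.00. Of 32 mitotic members, 21 averaged under 1 FPKM at D16, where a pseudocount of 1 compresses ratios.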
